A study of Mus musculus with 24 samples.

Results

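Late pregnancy was compared with the adult gland over the miRNAs of the mouse mammary gland. The members were the miRNAs with a stage mean of 1 RPM or more in either group (RPM being the reads of a miRNA per 1000000 reads on all listed miRNAs), which kept 531 of the 1009 miRNAs in the deposited table. The glands were whole homogenates of the abdominal and inguinal pairs of females of the inbred strain C57/BL6, 1 library for each mouse, and neither group was treated. The 6 mice of the adult group (W10) were 10 weeks of age, and whether they were virgin is not stated in the sources used here. The 6 mice of the pregnant group (P18) were at day 18 of gestation, and their age is not stated. The study also holds 12 libraries of lactating and involuting glands, which entered the estimate of the spread between mice and the choice of the 544 miRNAs over which p-values were adjusted, and no comparison here. Replicates are mice, numbered 1 to 6 at P18, and 1 to 5 and 7 at W10. The comparison asks which miRNAs differ between the ductal gland of the adult and the gland at the end of alveolar growth.

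miRNAs are short RNAs cut from hairpin precursors, and each hairpin can give a mature miRNA from its 5p and its 3p arm. Bases 2 to 8 of a mature miRNA, the seed, set most of its pairing with target mRNAs, so miRNAs with the same seed form a family with shared predicted targets. Several hairpins are often cut from one primary transcript, and such clusters can hold members of different families. In pregnancy the epithelium of the gland multiplies and fills the fat pad with secretory alveoli, while fat, vessels and connective tissue remain in the homogenate. In bulk tissue, fewer cells of a type and less RNA per cell cannot be told apart.

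Mature sequences and positions were taken from RefSeq (GRCm38.p6), where 447 of the 531 names were found. The sequences shown are those of the families and arm pairs on which the results turn, written 5′ to 3′ with the seed in capitals. The first set holds the miR-200 family, with one seed in miR-200a-3p and miR-141-3p and another in the remaining 3 members.
miR-200a-3p: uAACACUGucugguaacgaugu
miR-141-3p: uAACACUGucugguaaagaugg
miR-200b-3p: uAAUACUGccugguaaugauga
miR-200c-3p: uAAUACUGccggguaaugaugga
miR-429-3p: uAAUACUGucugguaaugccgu
The next set holds the miR-148 and miR-152 family and the miR-146 pair, in which only 1 member of each seed was called.
miR-148a-3p: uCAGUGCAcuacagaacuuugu
miR-148b-3p: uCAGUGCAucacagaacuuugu
miR-152-3p: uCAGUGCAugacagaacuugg
miR-146b-5p: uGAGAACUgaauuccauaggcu
miR-146a-5p: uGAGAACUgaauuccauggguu
Families in which every member of the seed was called lower on RPM are miR-29 and miR-99 with miR-100.
miR-29a-3p: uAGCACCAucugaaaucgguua
miR-29b-3p: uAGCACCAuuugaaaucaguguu
miR-29c-3p: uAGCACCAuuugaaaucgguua
miR-99a-5p: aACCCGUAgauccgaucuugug
miR-99b-5p: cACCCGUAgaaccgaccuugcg
miR-100-5p: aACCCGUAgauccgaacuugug
Pairs with one seed whose members went different ways are shown next.
miR-181a-5p: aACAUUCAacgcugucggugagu
miR-181b-5p: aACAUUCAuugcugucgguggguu
miR-20a-5p: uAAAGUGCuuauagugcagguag
miR-20b-5p: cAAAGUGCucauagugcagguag
miR-204-5p: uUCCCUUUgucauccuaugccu
miR-211-5p: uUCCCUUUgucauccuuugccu
The last set holds the arms of let-7d, the hairpin with the largest change of balance, and the antisense pair miR-338-3p and miR-3065-5p.
let-7d-5p: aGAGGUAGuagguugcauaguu
let-7d-3p: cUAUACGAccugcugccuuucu
miR-338-3p: uCCAGCAUcagugauuuuguug
miR-3065-5p: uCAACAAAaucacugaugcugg

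Some libraries stood apart before any comparison. P18 mouse 6 held 2062 RPM of miR-122-5p, a miRNA of hepatocytes, against at most 2.07 RPM in the 11 other libraries. It also had 2261 RPM of miR-192-5p, of liver and gut, where the others had at most 861 RPM, and 1072 RPM of miR-194-5p. These miRNAs were singled out after their values were seen. The skeletal muscle list (miR-1, miR-133, miR-206, miR-208 and miR-499, expressed in muscle fibres) summed to 4248 to 43578 RPM at W10 and 343 to 5834 RPM at P18, and W10 mice 3 and 7 were the lowest of their stage while P18 mice 4 and 6 were the highest of theirs. Over the 168 miRNAs whose mean reached 100 RPM, Pearson correlations of P18 mouse 6 with the other P18 libraries were 0.925 to 0.942, under the lowest value of 0.958 among those 5. Without the muscle and the liver and gut lists (160 miRNAs) its lowest correlation was 0.981, against 0.986 among the others. Libraries held 911336 to 1143715 reads at W10 and 870030 to 1165216 at P18, so a count of 0 allows up to 2.58 to 3.45 RPM (3 reads), for counting error only.

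Of the 531 miRNAs, 41 were called higher and 109 lower at P18 by limma, where a call needed an adjusted p below 0.05 and a log2 fold change of 1 or more in either direction on log2(RPM + 1), which makes 28.2% called, 7.72% higher and 20.5% lower. Without P18 mouse 6, 39 were higher and 112 lower. The 6 libraries of one stage lay wholly above those of the other for 36 of the 41 and 69 of the 109 called miRNAs, while over all 531 miRNAs 9.98% were wholly above at P18 and 17.3% at W10. Scaling moved this split. The median log2 fold change of all 531 was -0.33 on RPM and -0.14 after scaling by size factors, where 48 were called higher and 76 lower and 117 calls were shared with those on RPM. edgeR on the recovered reads called 62 higher and 71 lower, and DESeq2 53 and 66. Fold changes below are on the log2(RPM + 1) scale, which understates the change of miRNAs at a few RPM, and are best read against -0.33.

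Calls occurred at every level of abundance. Of the 64 miRNAs averaging 1000 RPM or more, 6 were called higher and 14 lower. From 100 to 1000 RPM, 13 of 104 were higher and 27 lower, from 10 to 100 RPM 11 of 125 were higher and 35 lower, and under 10 RPM 11 of 238 were higher and 33 lower. The 41 higher miRNAs gained 94576 RPM together and the 109 lower ones lost 183238 RPM. A gain of 206107 RPM, or 78.6% of everything gained, lay in the 6 miRNAs with the largest gains, of which 3 (miR-143-3p, let-7c-5p and let-7a-5p) changed by less than the limit of 1 on the log2 scale.

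**Figure D1:**
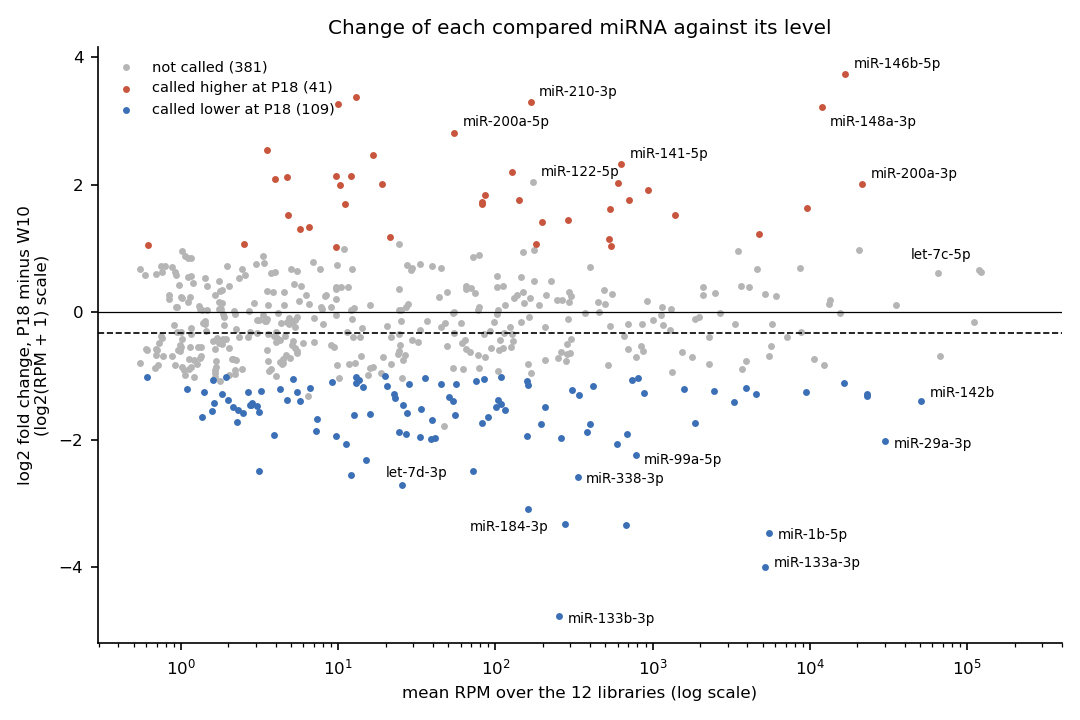
Each point is 1 of 531 miRNAs, with its mean RPM over the 12 libraries on a log axis and its log2 fold change (P18 minus W10) on the other. Called miRNAs are coloured (41 higher, 109 lower) and the dashed line marks the median of -0.33. miR-122-5p, high in 1 P18 library only, is labelled though it was not called.

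The miR-200 family, which keeps epithelial cells in their epithelial state, was higher at P18 in all 9 mature miRNAs compared, from both of its clusters and both arms of its hairpins. Its summed level was 15090.2 to 20985 RPM at W10 and between 50262 and 64834 RPM at P18. All 9 were called with no overlap between the stages, the median log2 fold change was 1.91 where that of all 531 was -0.33, and the smallest was 1.23. miR-200a-3p lay between 7072 and 11694 RPM at W10 (median 8089) and between 27361 and 39510.1 RPM at P18 (median 34236), the most abundant member. Every P18 library was above W10 mouse 4, which itself stood above the other adults. The log2 fold change was 2.01 ± 0.25 (SE, limma adjusted p = 2.4e-07). The 6 W10 libraries held 191 to 225 RPM of miR-141-5p (median 215) and the 6 P18 libraries 901 to 1156 RPM (median 1059), and the change was 2.32 ± 0.28 (SE, limma adjusted p = 1.7e-07). The 6 adult mice were close to each other for this miRNA, and the pregnant ones were again separate from them. miR-200a-5p rose the most of the family, 7.41-fold (2.82 ± 0.26 SE, limma adjusted p = 2.7e-09), from 13.0 ± 3.04 to 96.0 ± 13.8 RPM (SD, n = 6). The members with the seed AAUACUG, miR-200b-3p, miR-200c-3p and miR-429-3p, went from a summed 7829 ± 1058 to 21828 ± 1542 RPM.

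miR-200b, miR-200a and miR-429 lie in a cluster on chr4:156053905-156055750 (minus strand, within Ttll10), and miR-200c and miR-141 in one on chr6:124717914-124718390. The ratio of miR-141-3p to miR-200a-3p, which have the same seed and come from the different clusters, moved by -0.10 on the log2 scale, and the stages overlapped. Their mature sequences differ in 2 of 22 bases, the first of them at position 17. miR-200b-5p rose 3.53-fold, with a log2 fold change of 1.76 ± 0.27 (SE, limma adjusted p = 6.3e-06).

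The miR-183 cluster (chr6:30165918-30169737) of epithelial and sensory cells rose in 4 of its 5 compared miRNAs, with a median log2 fold change of 2.02. miR-182-5p, its most abundant member, went from 715 ± 101 to 2038 ± 200.3 RPM (SD, n = 6) and rose by 1.52 ± 0.21 (SE, limma adjusted p = 1.2e-06) on the log2 scale. miR-183-5p lay between 174 and 411 RPM at W10 (median 219) and between 744 and 1055 RPM at P18 (median 993). The stages did not overlap, although W10 mouse 1 was well above the other adults, and the change was 2.02 ± 0.26 (SE, limma adjusted p = 3.2e-07). miR-96-5p rose 4.51-fold and the 3p arm miR-183-3p 5.75-fold, the latter from a mean of 4.96 RPM. miR-182-3p had at most 4.14 RPM in any library and was not called. In the basal list, by contrast, miR-203-3p and miR-205-5p of keratinocytes and basal cells had log2 fold changes of 0.26 and 0.15, and miR-203-5p was at -0.44. Only miR-205-3p was called there, from 2.16 ± 1.43 to 7.45 ± 2.47 RPM (1.52 ± 0.36 SE, limma adjusted p = 9.0e-04). With a pseudocount of 10 its change was 0.52, under the limit. miR-375-3p of secretory cells was not called at P18 (0.66 ± 0.49 SE, limma adjusted p = 0.3), with W10 mouse 1 at 76.6 RPM above every P18 library. Without that mouse its change was 1.04 (limma adjusted p = 0.076), still without a call.

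**Figure D2:**
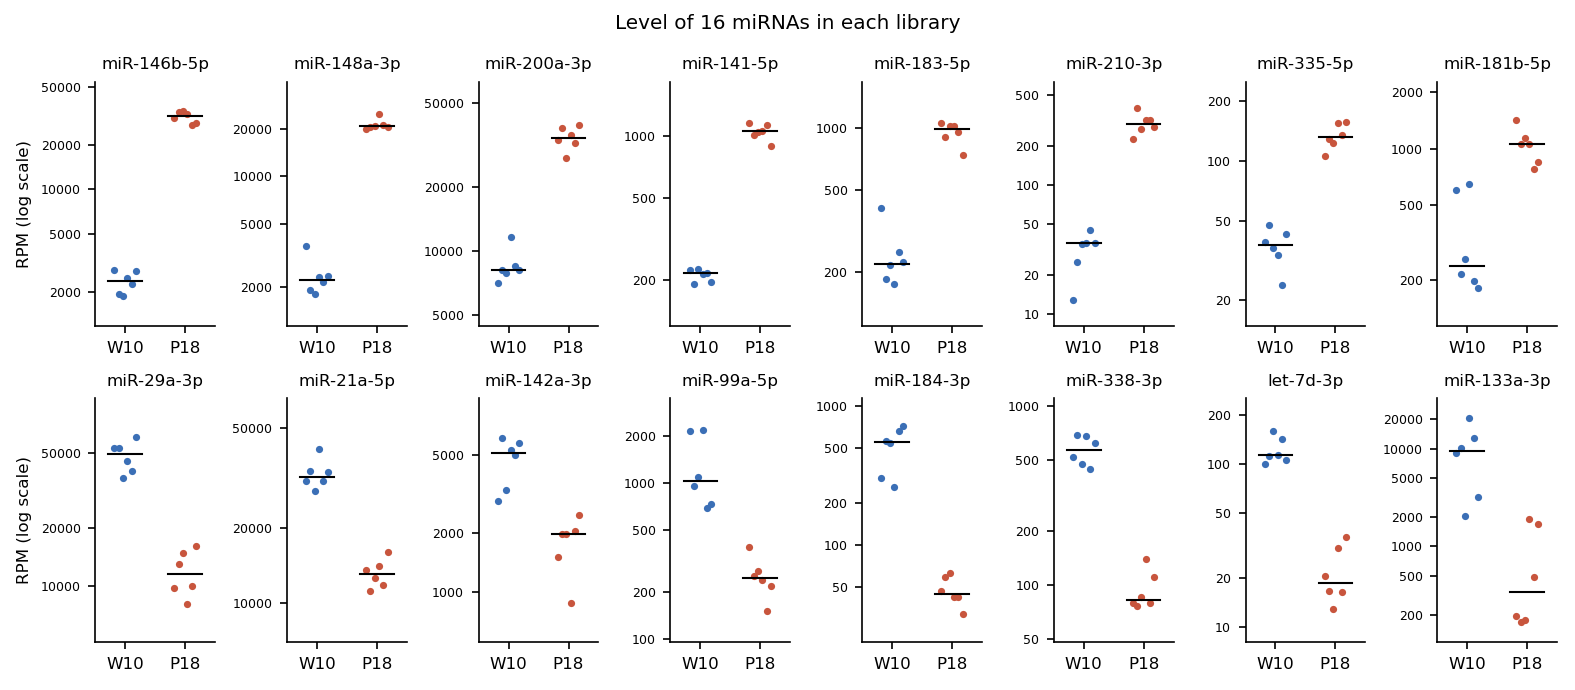
RPM of 16 miRNAs in each library (log axes, 6 mice at W10 in blue and 6 at P18 in red, black bars at the medians). None of the 16 overlapped between the stages, and miR-133a-3p spread the most within a stage.

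The seed CAGUGCA is shared by miR-148a-3p, a main miRNA of milk, miR-152-3p and miR-148b-3p. miR-148a-3p lay between 1809 and 3632 RPM at W10 (median 2220.2) and between 19936 and 24827 RPM at P18 (median 20707). The highest adult, mouse 1, was far below the lowest pregnant mouse, and the log2 fold change was 3.21 ± 0.30 (SE, limma adjusted p = 2.7e-09). miR-152-3p went from 493 ± 35.5 to 603 ± 29.5 RPM and miR-148b-3p from 76.4 ± 15.1 to 80.0 ± 11.8 RPM (SD, n = 6), with changes of 0.29 ± 0.14 (SE, limma adjusted p = 0.095) and 0.08, neither called. The log2 ratio of miR-148a-3p to miR-152-3p rose from 2.22 to 5.14 with no overlap, so the seed as a whole went from 0.293% to 2.20% of all reads almost entirely through 1 of its 3 members. miR-148a-3p comes from chr6:51269812-51269910, outside any annotated host, and miR-148b and miR-152 from introns of Copz1 (chr15:103285125-103285221) and Copz2 (chr11:96850393-96850465). The 5p arm miR-148a-5p rose as well, from a mean of 1.94 to 24 RPM (3.37 ± 0.41 SE, limma adjusted p = 2.3e-07), although its adult level was near the floor of a single library.

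miR-146a-5p and miR-146b-5p, both known for damping Toll-like receptor signalling, share the seed GAGAACU and differ in 2 of 22 bases, the first at position 18. miR-146b-5p had the largest increase of the comparison above 50 RPM (3.73 ± 0.26 SE, limma adjusted p = 1.8e-11), with 27349 to 33963 RPM in the P18 libraries against 1879.7 to 2816 RPM in the adults. miR-146a-5p lay between 11427 and 14724 RPM at W10 (median 13015) and between 6474 and 9163 RPM at P18 (median 8163). The adults lay above the pregnant mice for miR-146a-5p, with a log2 fold change of -0.73 ± 0.19 (SE, limma adjusted p = 0.0024), which does not reach the limit of 1. The more abundant member of the seed was thus miR-146a-5p in all 6 adults and miR-146b-5p in all 6 pregnant mice, and the log2 ratio of b to a moved by 4.46. miR-146b lies in an intron of Mfsd13a (chr19:46342762-46342870) and miR-146a at chr11:43374397-43374461. miR-146a-5p was named after its values were seen.

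miR-210-3p, induced by hypoxia, rose 9.61-fold (3.30 ± 0.34 SE, limma adjusted p = 2.0e-08). It lay between 228 and 398 RPM in the pregnant mice, and no adult was above 44.6 RPM. miR-335-5p, from an intron of the imprinted gene Mest (chr6:30741299-30741396), rose 3.61-fold (1.84 ± 0.25 SE, limma adjusted p = 1.1e-06), and its 3p arm rose with it from 3.75 to 16.8 RPM. miR-31-5p rose 2.59-fold (1.41 ± 0.21 SE, limma adjusted p = 2.8e-06), and miR-31-3p was called too, at a mean of 3.57 RPM. miR-296-3p and miR-298-5p, neighbours on chr2:174267047-174267585, both rose, by 1.33 and 2.14 on the log2 scale. With a pseudocount of 10, miR-335-3p (0.96), miR-31-3p (0.24), miR-296-3p (0.56) and miR-298-5p (0.95) had no call. Both arms of miR-3105 rose from under 2 RPM to means of 18.7 (5p) and 6.66 RPM (3p), the 3p arm without a call at a pseudocount of 10 (0.68). miR-335-3p, miR-296-3p, miR-298-5p and miR-3105 were named after their values were seen.

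The most abundant families had few calls. The let-7 list had 2 of 20 called lower, let-7d-3p and let-7e-3p at under 2 RPM on average, the latter without a call under size factors (-0.87), edgeR, DESeq2 or a pseudocount of 10 (-0.21). The 10 miRNAs with the let-7 seed GAGGUAG, which restrain proliferation and keep cells differentiated, had no call on RPM (2 with size factors, edgeR or DESeq2), yet their sum went from 182584 ± 24668 to 268490.5 ± 23479 RPM (SD, n = 6), or 18.3% to 26.8% of the reads, with no overlap between 224964 RPM, the highest adult, and 233905 RPM, the lowest pregnant mouse. let-7c-5p, the most abundant miRNA of the comparison, went from 96536 ± 13905 to 149044 ± 14273 RPM (0.63 ± 0.11 SE, limma adjusted p = 1.9e-05) and let-7a-5p from 51405 ± 8231 to 78387 ± 6796 RPM (0.62 ± 0.11 SE, limma adjusted p = 6.3e-05). let-7i-5p, at 0.96 ± 0.15 (SE, limma adjusted p = 7.0e-06), was just under the limit on RPM, and past it after scaling by size factors (1.21) or without W10 mouse 1 (1.06). miR-143-3p, of smooth muscle and pericytes, went from 92349 ± 6872 to 145529 ± 7070.1 RPM (0.66 ± 0.09 SE, limma adjusted p = 5.9e-07). miR-16-5p had a change of -0.15 ± 0.09 (SE, limma adjusted p = 0.16), and all 7 members of its seed AGCAGCA, which slows the cell cycle, were without a call (without P18 mouse 6, 1 of them, miR-497a-5p, was called lower). miR-199a-3p of fibroblasts went from 82291 ± 11469.6 to 50990.1 ± 5274 RPM (-0.69 ± 0.12 SE, limma adjusted p = 5.5e-05). These 5 most abundant miRNAs all missed the fold limit.

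Among the families that fell, miR-29, which represses collagens and other matrix genes, fell in all 3 miRNAs of its seed AGCACCA. miR-29a-3p lay between 36837 and 60474 RPM at W10 (median 49071) and between 8079 and 16201 RPM at P18 (median 11498). The stages were far apart, and miR-29a-3p fell 4.01-fold (-2.03 ± 0.15 SE, limma adjusted p = 5.7e-11). miR-29c-3p fell from 2838 to 883 RPM and miR-29b-3p from 579 to 259 RPM. The seed as a whole went from 5.14% to 1.31% of the reads. Counting both arms, 5 of 7 compared members were called lower, from both genomic clusters (chr6:31062660-31063093 and chr1:195037040-195037634). After scaling by size factors 3 of the 7 were called, miR-29b-3p being at -0.91 and miR-29b-2-5p at -0.99.

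The seed ACCCGUA of miR-99a, miR-99b and miR-100, regulators of mTOR signalling, was called lower in its 3 members on RPM, and its sum went from 1643 ± 723 to 394 ± 113 RPM. miR-99a-5p lay between 694 and 2189.7 RPM at W10 (median 1022) and between 151.9 and 386 RPM at P18 (median 247). W10 mice 1 and 4 were the highest, and all adults were above all pregnant mice (-2.25 ± 0.28 SE, limma adjusted p = 3.0e-07). miR-100-5p, 1 base apart from miR-99a-5p, fell by 1.73 on the log2 scale and miR-99b-5p by 1.08, the last of them at -0.83 and not called after scaling by size factors. Of the miR-125 seed CCCUGAG, miR-125a-5p (-1.25 ± 0.20 SE, limma adjusted p = 7.6e-06) and miR-125b-5p (-1.12 ± 0.22 SE, limma adjusted p = 1.4e-04) fell and miR-351-5p was not called. After scaling by size factors the change of miR-125b-5p was -0.86, and without W10 mouse 3 it was -0.99, both under the limit, and edgeR gave -0.96 for miR-125a-5p. In the cluster on chr16:77598936-77599750 (Mir99ahg), miR-99a-5p fell while let-7c-5p, which also has a copy on chromosome 15, was at 0.63, and the log2 ratio of the pair moved by -2.88 with no overlap. In the cluster on chr17:17830352-17830879, miR-125a-5p fell, let-7e-5p was at 0.41, and let-7e-3p, at a mean under 2 RPM, was called lower at -1.06 on RPM.

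miR-21a, raised in inflammation and in many tumours, fell on both arms, miR-21a-5p from 32862 ± 4546 to 13197 ± 1738 RPM (-1.32 ± 0.14 SE, limma adjusted p = 2.1e-08) and miR-21a-3p from 18.4 ± 5.38 to 4.04 ± 2.58 RPM. miR-196a-5p and miR-196b-5p, of the Hox clusters, fell, with log2 fold changes of -1.18 and -1.21, and of -0.93 and -0.96 after scaling by size factors, where neither passed the limit. miR-184-3p lay between 263 and 715 RPM at W10 (median 554) and between 32.2 and 62.9 RPM at P18 (median 44.9). This miRNA of eye and skin epithelium had no overlap and a change of -3.33 ± 0.27 (SE, limma adjusted p = 2.3e-10). miR-338-3p lay between 443 and 689 RPM at W10 (median 569) and between 76.6 and 139 RPM at P18 (median 82.9), and it too had no overlap (-2.58 ± 0.26 SE, limma adjusted p = 8.0e-09). miR-338-3p lies in an intron of Aatk (chr11:120014765-120014862), and miR-3065-5p on the opposite strand over 21 of the same bases. miR-3065-5p fell as well, from 611 to 188 RPM (-1.75 ± 0.25 SE, limma adjusted p = 1.7e-06), and was named after its values were seen. Whether its reads are separate from those of miR-338-3p was not tested. miR-3964 (-1.98 ± 0.32 SE, limma adjusted p = 1.4e-05), miR-132-3p (-1.18 ± 0.29 SE, limma adjusted p = 0.0016), the 1 called of 3 in its list with miR-212, and miR-9-5p of the neural list (-1.44 ± 0.19 SE, limma adjusted p = 5.6e-07) fell too. Most of the miR-3964 sequence is shared with miR-142a-5p, which fell from 31988 to 13925 RPM, so the reads of miR-3964 are uncertain. miR-132-3p had no call with size factors (-0.94), edgeR (-0.93), DESeq2 (-0.995) or a pseudocount of 10 (-0.70). In the miR-378 family, encoded in part within Ppargc1b, 4 of 5 compared members fell, miR-378a-3p from 1262 ± 359 to 511 ± 80.8 RPM and miR-378c by the most (-1.64 ± 0.18 SE, limma adjusted p = 2.6e-08). With size factors 2 of the 5 were called, and miR-378a-5p and miR-378b were at -0.88 and -0.91.

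**Figure D3:**
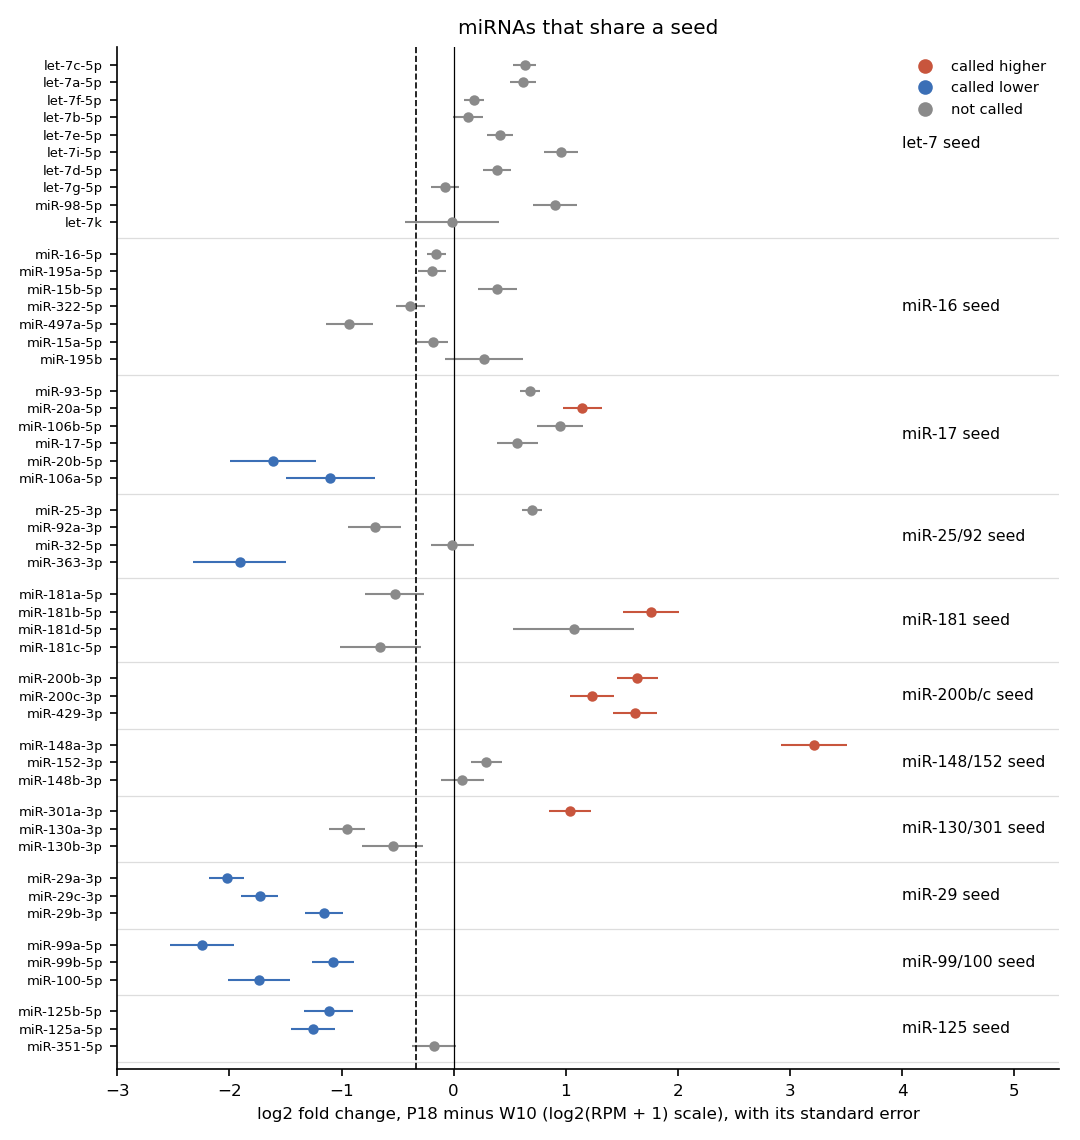
log2 fold change (P18 minus W10) of the miRNAs of 11 seeds, with its standard error, coloured by call (red higher, blue lower, grey not called). The dashed line is the median of all 531 miRNAs, -0.33. The miR-200b/c, miR-29 and miR-99/100 seeds were called whole on RPM, and the miR-17, miR-148a, miR-181 and miR-301a seeds did not.

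Of the 14 seeds shared by at least 3 of the matched miRNAs (59 miRNAs), 4 had 3 or more calls (2 after scaling by size factors), 5 had no call and 1, AAAGUGC, had calls both ways. The miR-30 seed GUAAACA, among the 5, was counted without miR-30b and miR-30d, for which no sequence was found, and miR-30d-5p was called lower (-1.29). In AAAGUGC, which promotes the cell cycle, miR-20a-5p of the miR-17-92 cluster was called higher (1.15 ± 0.17 SE, limma adjusted p = 4.9e-06). miR-20b-5p (-1.61 ± 0.39 SE, limma adjusted p = 0.0011) and miR-106a-5p (-1.10 ± 0.40 SE, limma adjusted p = 0.027), of the cluster miR-106a-363 on the X chromosome, were called lower, and miR-106a-5p lost its call with size factors (-0.87) and with a pseudocount of 0.1 or 10 (-1.25 and -0.56). miR-20a-5p and miR-20b-5p differ in 2 of 23 bases, and their log2 ratio moved by 2.76 with no overlap. From miR-17-92 on chromosome 14, 2 of 12 compared miRNAs were called, both higher, led by miR-18a-5p (1.72 ± 0.23 SE, limma adjusted p = 9.6e-07). From miR-106a-363, 3 of 5 were called, all lower, with miR-363-3p at -1.91 ± 0.41 (SE, limma adjusted p = 4.0e-04), where P18 mouse 6 overlapped the adults. miR-106b-25, within Mcm7, had no call on RPM (1 with size factors) and a median of 0.69. Its miR-25-3p (0.70 ± 0.09 SE, limma adjusted p = 5.0e-07) shares the seed AUUGCAC with miR-363-3p and with miR-92a-3p (-0.70), and miR-19b-3p was at 0.27.

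In the miR-181 family, known in lymphocyte development, miR-181a-5p and miR-181b-5p share the seed ACAUUCA and differ in 3 of 23 aligned bases. miR-181b-5p lay between 183 and 649.9 RPM at W10 (median 238) and between 782 and 1426 RPM at P18 (median 1056). W10 mice 1 and 4 were above the other adults but below every pregnant mouse (1.76 ± 0.25 SE, limma adjusted p = 1.7e-06). miR-181a-5p lay between 464 and 2066 RPM in the adults and between 471 and 787 RPM in the pregnant mice, with overlap and no call (-0.52 ± 0.26 SE, limma adjusted p = 0.11). The log2 ratio of b to a went from -1.55 to 0.73 with no overlap, so a led in all adults and b in all pregnant mice. Both come from 2 clusters each, whose 3p arms tell the clusters apart. From the cluster on chr1:137966455-137966718, miR-181b-1-3p was called higher (2.13 ± 0.34 SE, limma adjusted p = 1.0e-05), and miR-181a-1-3p was at 0.74 ± 0.26 (SE, limma adjusted p = 0.025). From the cluster on chr2:38852735-38853918, miR-181a-2-3p was called lower (-1.93 ± 0.38 SE, limma adjusted p = 1.5e-04), and miR-181b-2-3p was at -0.15. The 3p arms were at means of 1.18 to 34.2 RPM. With a pseudocount of 10 the change of miR-181a-2-3p was -0.57, without a call.

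miR-204-5p and miR-211-5p differ in 1 of 22 bases and lie in introns of Trpm3 and Trpm1, and are known from pigmented and epithelial cells. miR-204-5p lay between 91.7 and 271 RPM at W10 (median 138) and between 309 and 519.5 RPM at P18 (median 414). miR-211-5p lay between 14.0 and 39.4 RPM at W10 (median 23.7) and between 0 and 8.05 RPM at P18 (median 5.25). Neither overlapped, and the first rose (1.44 ± 0.26 SE, limma adjusted p = 5.6e-05) while the second fell (-2.31 ± 0.46 SE, limma adjusted p = 1.6e-04). In the seed AGUGCAA, miR-301a-3p rose (1.04 ± 0.19 SE, limma adjusted p = 6.0e-05) and miR-130a-3p, with a change of -0.95 ± 0.16 (SE, limma adjusted p = 2.0e-05), was not called. Their log2 ratio moved by 1.99 with no overlap. The call of miR-301a-3p was lost without W10 mouse 1 or 3 or P18 mouse 2 or 6, where its change was 0.94 to 0.97, and without P18 mouse 6 miR-130a-3p was called lower. miR-199b-5p fell (-2.06 ± 0.26 SE, limma adjusted p = 2.4e-07), and miR-199a-5p, at -0.77, was not called. miR-199a-5p was named after its values were seen.

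Grouped by position, the matched miRNAs fell into 38 clusters of 2 or more hairpins within 10000 bases on a strand. In 7 of them all calls were higher, in 16 all were lower, in 14 there were none, and 1, the miR-181 cluster on chromosome 2, held a call each way (miR-181b-5p, which is also encoded on chromosome 1, and miR-181a-2-3p). Several of the clusters with calls in one direction held a single call, so a mixed result was not possible there. miRNAs with more than 1 copy, such as miR-29b-3p, count in each of their clusters. On the X chromosome, 4 of the 8 compared miRNAs of chrX:7237683-7248497 were lower, among them miR-362-3p (-1.53), miR-362-5p (-1.49) and miR-532-3p (-1.29, or -0.90 and not called with a pseudocount of 10). The imprinted Dlk1-Dio3 region on chromosome 12 had 3 calls in 53 miRNAs, all lower, against 6 without P18 mouse 6, 1 with edgeR or DESeq2 and 0 with a pseudocount of 10. miR-409-5p was at -1.59 ± 0.46 (SE, limma adjusted p = 0.0057), and its call was lost with a pseudocount of 0.1 (-1.73, limma adjusted p = 0.092) or 10 (-0.94). Its most abundant member over these libraries, miR-541-5p, was at -0.19, and its median was -0.18 on RPM and 0.04 after scaling by size factors. The list of miR-297, miR-466, miR-467 and miR-669, best known from a rodent cluster within Sfmbt2, holds many near-identical copies whose reads cannot be told apart with certainty. It was drawn by name, and the members with a position lay elsewhere (miR-466i on chromosome 13, miR-466k and miR-466q on chromosome 3). Of 30 compared, 11 were called lower and 1, miR-466i-5p, higher, and 7 lower with DESeq2 or 5 with a pseudocount of 10. miR-669o-3p fell from 306 ± 82.2 to 109 ± 32.9 RPM and miR-467a-3p from 44.6 ± 15.8 to 6.44 ± 3.44 RPM, the latter name carrying an @ that no source used here explains. The median of the list was -0.90 (-0.70 with size factors). The miRNAs of chrX:7237683-7248497 were named after their values were seen.

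The remaining lists had few calls. In the miR-30 list 1 of 12 was called, miR-30d-5p, at -1.29 ± 0.13 (SE, limma adjusted p = 1.0e-08), and the most abundant, miR-30a-5p, was at -0.68. From miR-23/27/24, 1 of 9 was called, miR-27b-5p (1.69 ± 0.33 SE, limma adjusted p = 1.6e-04), from a mean of 5.48 RPM and without a call at a pseudocount of 10 (0.82). Its other arm miR-27b-3p went from 13694 ± 990.2 to 26997 ± 1762 RPM (0.98 ± 0.11 SE, limma adjusted p = 7.8e-08), and passed the limit after scaling by size factors (1.23), and barely so without W10 mouse 4 or 5 or P18 mouse 1 or 3. From the list of miR-15, miR-16, miR-195 and miR-497, 1 of 13 was called, miR-497a-3p, at -1.01 ± 0.38 (SE, limma adjusted p = 0.033), without a call under size factors (-0.77), edgeR (-0.62), DESeq2 (-0.68) or a pseudocount of 0.1 (-1.13) or 10 (-0.54). Its call was also lost without W10 mouse 4 or 5 or P18 mouse 1 or 4 (-0.99 to -0.72). The lists of miR-7, miR-26, miR-101, miR-322 with miR-503, miR-10, miR-221 with miR-222, miR-34 with miR-449, and miR-103 with miR-107 had no call, with medians between -0.56 and 0.26 on RPM. Their most abundant members, miR-7a-5p (0.48), miR-26a-5p (-0.53), miR-101a-3p (-0.31), miR-322-5p (-0.38), miR-10a-5p (-0.39), miR-221-3p (-0.11), miR-34c-5p (0.15) and miR-103-3p (0.12), changed by at most 0.53 on the log2 scale. The medians of let-7 (-0.05), miR-30 (-0.19), miR-26 (-0.03), miR-15 and miR-16 (-0.19), miR-103 and miR-107 (-0.08) and the neural list (-0.17) turned positive with size factors.

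The arms of a hairpin come from one precursor, so a change in their ratio hardly depends on the scaling of a library. Among 157 hairpins with both arms compared, 9 had both arms called higher, 12 both lower, 89 neither, 32 only the more abundant arm and 14 only the less abundant one. Only miR-466i had its arms called in opposite directions, miR-466i-5p at 1.31 ± 0.34 (SE, limma adjusted p = 0.0024) and miR-466i-3p at -1.45 ± 0.45 (SE, limma adjusted p = 0.0094), both with means under 9 RPM, and neither was called at a pseudocount of 10, nor miR-466i-3p by edgeR or DESeq2 (-1.47 and -1.59). Where the more abundant arm was called higher, the other arm had the same sign in 14 of 16 hairpins, and where it was called lower in 31 of 38. Over all 157 hairpins the arms had one sign in 110, and negative signs were common, the median of all miRNAs being -0.33. Across the 71 hairpins with both arms at a mean of at least 10 RPM, Pearson's r between the log2 fold changes of the arms was 0.776, over hairpins that share libraries. Across all 157 hairpins it was 0.642.

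Of these 71 hairpins, 12 (16.9%) changed their balance, 8 toward 5p and 4 toward 3p. The let-7d arms changed the most. The 5p arm held 93.6% at W10 (92.3 to 95.0%) and 99.1% at P18 (98.5 to 99.4%) of the reads of both arms. The stages were apart, and the log2 ratio of 5p to 3p rose by 2.88 ± 0.29 (SE, limma adjusted p = 2.3e-08). let-7d-3p lay between 100.3 and 159 RPM at W10 (median 113) and between 12.8 and 35.6 RPM at P18 (median 18.5). let-7d-3p fell 5.55-fold (-2.49 ± 0.30 SE, limma adjusted p = 1.6e-07), the largest decrease of the let-7 list, while let-7d-5p was at 0.39. The hairpin lies at chr13:48536012-48536114 in an exon of the long non-coding RNA 6720427I07Rik, and the 3p arms of its neighbours let-7f-1 and let-7a-1 were at -0.02 and -0.62. let-7i moved the same way (1.25 ± 0.29 SE, limma adjusted p = 0.0016), with the stages overlapping.

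**Figure D4:**
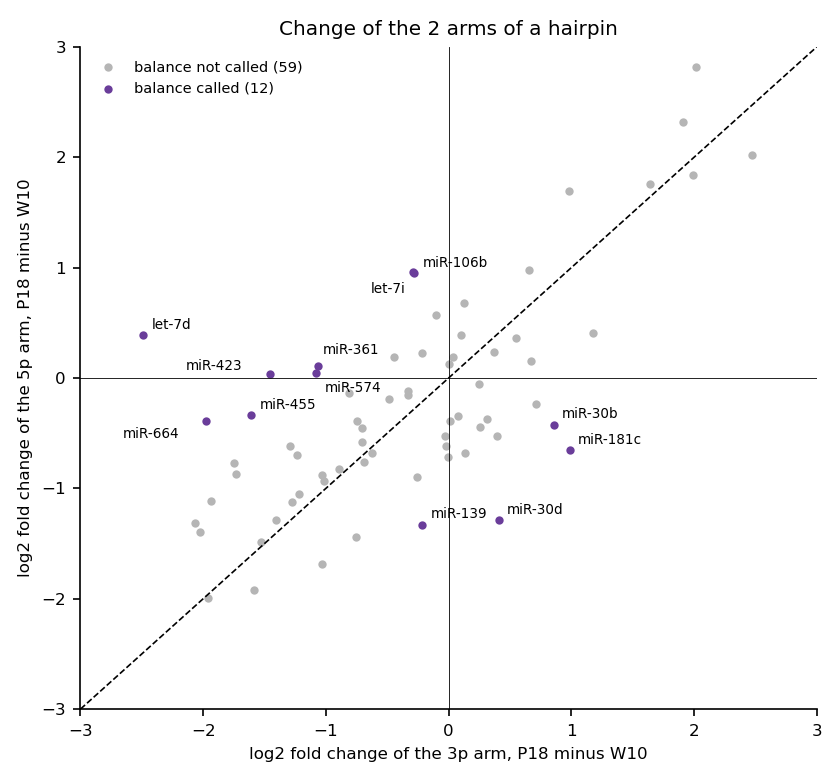
Each point is 1 of 71 hairpins, with the log2 fold change (P18 minus W10) of its 3p arm on the horizontal and of its 5p arm on the vertical axis. The dashed line marks equal change, and the 12 hairpins with a called balance are purple. let-7d lies farthest above the line and miR-30d farthest below it.

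miR-664 (1.58 ± 0.39 SE, limma adjusted p = 0.0023), miR-423 (1.49 ± 0.32 SE, limma adjusted p = 9.3e-04), miR-455 (1.27 ± 0.29 SE, limma adjusted p = 0.0016) and miR-361 (1.17 ± 0.31 SE, limma adjusted p = 0.0039) also moved toward 5p without overlap, in each case with the 3p arm called lower and the 5p arm not called. In miR-423 the more abundant arm was 3p at W10 and 5p at P18, the 5p share being 38.7% at W10 (28.1 to 47.4%) and 64.4% at P18 (54.3 to 81.2%). miR-574 (1.12 ± 0.27 SE, limma adjusted p = 0.0016) and miR-106b (1.23 ± 0.34 SE, limma adjusted p = 0.0053) moved toward 5p with overlap. Some single arms changed their call. miR-574-3p lost it with size factors (-0.83), edgeR, DESeq2 or a pseudocount of 10, with a replicate block (-0.97), and without W10 mouse 3 or P18 mouse 6 (-0.98 and -0.99). miR-361-3p lost it with size factors (-0.82), edgeR, DESeq2 or a pseudocount of 10 (-0.60), and without W10 mouse 3 or P18 mouse 3 or 6 (-0.95 to -0.84), and miR-455-3p with a pseudocount of 10 (-0.87). miR-106b-5p gained a call with size factors (1.20), edgeR or DESeq2, and without W10 mouse 4 or 7 or P18 mouse 1 (1.01 to 1.06). Toward 3p, miR-30d changed by -1.70 ± 0.20 (SE, limma adjusted p = 2.5e-07), and the drop was in the abundant 5p arm while miR-30d-3p was at 0.41. miR-30b, also of the miR-30 family, moved the same way (-1.28 ± 0.25 SE, limma adjusted p = 3.0e-04), with miR-30b-3p at 0.86 and miR-30b-5p at -0.42. miR-181c (-1.64 ± 0.44 SE, limma adjusted p = 0.0039) had no overlap and arms of 7.68 to 31.0 RPM on average. Its 3p arm, not called, had a call at 1.02 to 1.21 without W10 mouse 1, 3 or 4 or P18 mouse 3, 4 or 6, and with size factors (1.19), edgeR or DESeq2, as did miR-30b-3p (1.10 with size factors). miR-139 (-1.12 ± 0.43 SE, limma adjusted p = 0.046) overlapped between the stages. With a pseudocount of 10, 7 of these 12 pairs were called, and the balance of miR-139, miR-181c, miR-361, miR-455 and miR-574 was not. miR-708, next below the limit, was at 0.98 and miR-542 at -0.95. With both arms at a mean of at least 100 RPM, 21 hairpins remained and none was called by limma (7 had an adjusted p and 11 an unadjusted p under 0.05), and in each of the 12 pairs 1 arm averaged under 100 RPM.

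Lists of miRNAs known from other cell types were counted in the same way. Leukocyte miRNAs (miR-142 and miR-223) summed to 70403 to 144876 RPM at W10 and 20529.9 to 61659.9 RPM at P18, and 3 of 5 were called lower. All 3 came from the miR-142 locus, and miR-223-3p (-0.62) and miR-223-5p (-0.68) were not called. miR-142a-3p lay between 2914 and 6155 RPM at W10 (median 5173) and between 882 and 2471 RPM at P18 (median 1985). The adults were above, with W10 mice 1 and 3 nearest to the pregnant ones (-1.41 ± 0.30 SE, limma adjusted p = 3.3e-04). miR-142b was the most abundant of the list, from 73574 ± 20600.2 to 28313 ± 8456 RPM (-1.39 ± 0.29 SE, limma adjusted p = 3.1e-04). It is annotated on the strand opposite to miR-142a-3p over 20 bases and shares a run of 10 bases with miR-142a-5p, so its reads are uncertain. These reads make up most of the summed level of the list. Of the lymphocyte list (miR-150, miR-155 and miR-342), 3 of 5 fell, miR-150-5p from 1076 ± 265 to 291 ± 89.9 RPM (-1.92 ± 0.39 SE, limma adjusted p = 2.1e-04), and the most abundant, miR-342-3p, was at -0.81 ± 0.18 (SE, limma adjusted p = 4.7e-04), under the limit. With size factors 2 of the 5 were called, miR-155-5p being at -0.89. The mouse mammary fat pad holds a lymph node, and whether it was removed is not stated in the sources used here. Of the red blood cell list, 3 of 5 were called lower. miR-451a went from 998 ± 450.4 to 475 ± 221 RPM, with overlap. The other calls were the arms of miR-486a, found in muscle as well, miR-486a-5p (-1.99 ± 0.29 SE, limma adjusted p = 1.8e-06) and miR-486a-3p (-1.96). miR-144-3p (0.40) and miR-144-5p (-0.53), of the same cluster as miR-451a, were not called. miR-451a was at -0.82 and not called after scaling by size factors, and it lost its call without W10 mouse 4 (-0.88), P18 mouse 3 (-0.98) or P18 mouse 4 (-0.94).

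The skeletal muscle list had 6 of 8 compared miRNAs called lower, with a median log2 fold change of -3.21. miR-133a-3p lay between 2066 and 20489 RPM at W10 (median 9527) and between 168 and 1912 RPM at P18 (median 343). The stages of this miRNA were apart by a narrow margin. miR-1b-5p lay between 1812 and 18851 RPM at W10 (median 9959) and between 144 and 3320.1 RPM at P18 (median 611), with overlap (-3.46 ± 0.93 SE, limma adjusted p = 0.0033). miR-133b-3p (-4.77 ± 1.02 SE, limma adjusted p = 3.5e-04), miR-1a-3p (-3.33 ± 0.91 SE, limma adjusted p = 0.0037) and miR-133a-5p (-3.09 ± 0.91 SE, limma adjusted p = 0.0069) also overlapped between stages. The adults with the lowest sums of this list, mice 3 and 7, lay within the range of the pregnant mice for miR-1b-5p, miR-1a-3p and miR-133a-5p, and the part of muscle beside the gland in these values was not tested.

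**Figure D5:**
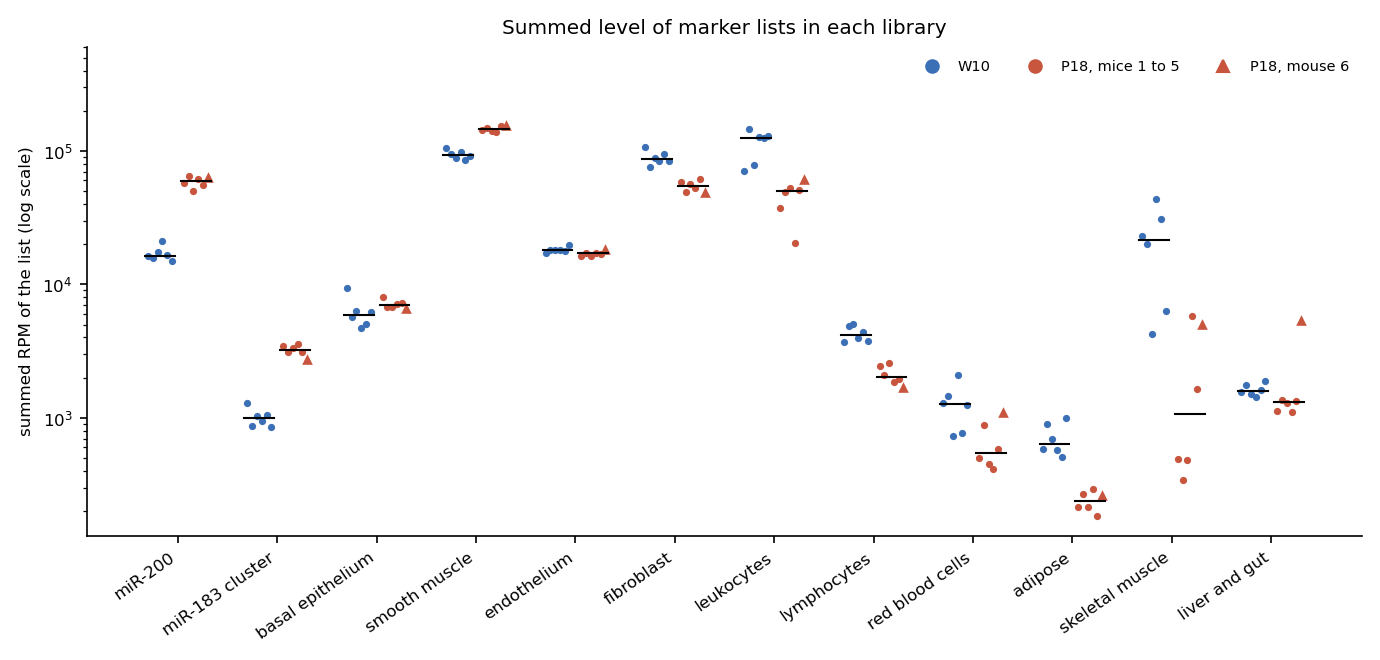
Summed RPM of 12 marker lists in each library (log axis, W10 in blue, P18 in red, black bars at the medians), with P18 mouse 6 as triangles. The miR-200, miR-183 and smooth muscle lists were higher and the fibroblast, lymphocyte, leukocyte and adipose lists lower at P18 with no overlap. P18 mouse 6 lies far above the other 11 libraries in the liver and gut list.

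The fibroblast list (miR-199 and miR-214) summed to 76319.7 to 107831 RPM at W10 and 49385 to 61783 RPM at P18, and 2 of 5 were called lower, miR-214-3p (-1.03, or -0.78 and not called with size factors) and miR-199b-5p. Of the adipose list (miR-193 and miR-365), 2 of 5 were called, miR-365-3p from 602 ± 182 to 161 ± 37.5 RPM (-1.88 ± 0.22 SE, limma adjusted p = 8.4e-08) and miR-193b-3p (-1.45, or -0.40 and not called with a pseudocount of 10). The endothelial miR-126 list had no call, and miR-126a-3p stayed within 14704 to 16425 RPM in all 12 libraries (-0.01 ± 0.09 SE, limma adjusted p = 0.95). That flat value depends on the scaling. On the recovered reads miR-126a-3p was at 0.29 (edgeR adjusted p = 0.026) and 0.24 (DESeq2 adjusted p = 0.023), under the fold limit. The smooth muscle list (miR-143 and miR-145a) had no call on RPM (1 with size factors, miR-143-5p at 1.23), and its sum was 85923 to 104516 RPM at W10 and 139519 to 156821 RPM at P18, higher at P18 without overlap. Most of that sum was miR-143-3p (means of 92349 and 145529 RPM). miR-145a-5p (-0.05) and miR-145a-3p (0.25) changed little, so the rise of the sum is that of miR-143-3p. In the neural list miR-138-5p rose (1.07 ± 0.18 SE, limma adjusted p = 1.4e-05), and its change was 0.995 without W10 mouse 1. The liver and gut list had no call on RPM (1 with edgeR or DESeq2), and its sum was 1439.7 to 1892 RPM at W10 and 1106 to 5412 RPM at P18, or at most 1349 RPM without P18 mouse 6. miR-122-5p had a log2 fold change of 2.04 ± 1.42 (SE, limma adjusted p = 0.26), which rests on that library alone. The part of these cell types in the other changes was not tested, and the log2 fold changes of miR-200a-3p, miR-141-5p, miR-200a-5p, miR-148a-3p, miR-146b-5p, miR-29a-3p and let-7d-3p were called with each of the 12 mice left out in turn.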

How the data were processed

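Small RNA libraries (QIAseq miRNA kit) of whole mammary glands were read with 1 library per mouse. Per the labels and the study's methods, reads were trimmed (the submitters' processing notes list Trimmomatic 0.36, cutadapt, FastQC and MultiQC) and assigned to mouse miRBase miRNAs with QuickMIRSeq, and the authors deposited RPM values with 2 decimals. Whether molecular identifiers were counted is not given in the sources used here. In each library 100% of the low values were whole multiples of 1 read (tolerance 0.1 reads). Whole reads gave back 100% of all printed values, and these reads gave the depths. W10 mouse 7 had 0.9945 RPM per read, so its low values alone cannot tell whole reads from rounding.

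RPM values were tested as log2(RPM + 1) with limma 3.58.1 in R 4.3.3 (lmFit, eBayes with a trend, two-sided), fitted to all 24 libraries and the 544 miRNAs that averaged 1 RPM or more at any of the 4 stages, with Benjamini-Hochberg adjustment over them. The balance of arms was fitted in the same way as log2(5p + 1) minus log2(3p + 1). All stages share one estimate of the spread. Nothing in the labels says more of the replicates than that they are separate mice. No pair of libraries agreed within sampling noise (smallest chi-square per degree of freedom 26.4).

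The miRNAs named were the 12 largest increases and decreases with a mean of at least 50 RPM, for each list its most abundant member, its largest called change and any call against its majority, each called arm pair, hairpins with arms called in opposite directions, the 5 most abundant miRNAs and the members of seeds shared by 3 or more. The ratios of pairs, the clusters by position, and miR-181a-1-3p, miR-181b-2-3p, miR-182-3p, miR-193b-3p, miR-194-5p, miR-205-5p, miR-214-3p, miR-29b-2-5p, miR-378a-5p, miR-378b, miR-155-5p, miR-143-5p, miR-145a-5p, miR-145a-3p, miR-223-3p, miR-223-5p, miR-497a-5p, miR-31-3p, miR-142a-5p, miR-144-3p, miR-144-5p, miR-203-5p, miR-486a-3p and let-7e-3p were named after their values were seen. Members and lists were chosen with earlier results of these data known. Alternatives were pseudocounts of 0.1 and 10, filters on RPM, the 12 libraries alone, a replicate block, size factors, edgeR 4.0.16 and DESeq2 1.42.0 on the recovered reads, and each mouse left out. Scripts were tested on simulated data. Figures used matplotlib 3.10.9.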

Additional observations from a re-analysis of the deposited data

Results flagged for a closer look

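Of 216 sets of 6 libraries (108 named miRNAs at 2 stages), 16 held a library with a gap to the nearest other library beyond Dixon's critical value, and chance alone would flag about 1 in 20. W10 mouse 1 was the highest adult for 5 of them, with 3632.03 RPM of miR-148a-3p, 410.87 RPM of miR-183-5p, 76.57 RPM of miR-375-3p, 8671.36 RPM of miR-196a-5p and 3404.49 RPM of let-7i-5p, where the next adults had 2339, 248, 28, 5406 and 2386 RPM. Of these, miR-375-3p overlapped between the stages and the other 4 did not.

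W10 mouse 4 had 11694.35 RPM of miR-200a-3p and 15.06 RPM of miR-27b-5p, and W10 mouse 3 had 43128.99 RPM of miR-103-3p and 43.89 RPM of miR-139-3p. In the pregnant group, mouse 6 had 2260.84 RPM of miR-192-5p, beside its miR-122-5p, and 19.54 RPM of miR-363-3p. P18 mouse 1 was the lowest for miR-9-5p, at 39.74 RPM, and the highest for miR-423-5p, at 33.63 RPM. P18 mouse 2 had 42573.48 RPM of miR-103-3p, P18 mouse 4 had 24827.16 RPM of miR-148a-3p, and P18 mouse 5 had the lowest miR-378a-3p, at 357.02 RPM.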

How the results depend on the processing

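On RPM 150 miRNAs were called (41 higher, 109 lower). With a pseudocount of 10, 88 were called (28 and 60), 87 of them shared with the 150, and at a filter of 100 RPM 68 of 182 (22 and 46), where fewer were tested. edgeR called 62 higher and 71 lower and DESeq2 66 lower. Leaving out 1 mouse gave 145 to 156 calls, 39 to 46 of them higher and 102 to 113 lower. Arm pairs called went from 12 to 23 with both arms at 1 RPM and to 0 at 100 RPM, and to 11 to 14 without 1 mouse. With a pseudocount of 10, 10 pairs were called, 7 of them among the 12. Higher calls were 27.3% of all calls on RPM, 38.7% with size factors, 46.6% with edgeR and 44.5% with DESeq2, and the cause was not tested.

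The sign turned under an alternative in 9 named miRNAs, none of them called. miR-16-5p (0.0974 with size factors, 0.1446 with edgeR, 0.0981 with DESeq2), miR-221-3p (0.1425, 0.1865, 0.1396), miR-126a-3p (0.2429, 0.2924, 0.2424) and miR-541-5p (0.0583, 0.1067, 0.0589) turned positive on the log2 scale, as did miR-139-3p (0.0255 with size factors, 0.0107 with edgeR) and miR-106b-3p (0.0398 with edgeR). Without 1 mouse, miR-126a-3p ranged from -0.0217 to 0.0082, miR-192-5p from -0.09 (without P18 mouse 6) to 0.2624, miR-423-5p from -0.1042 to 0.1826 and miR-574-5p from -0.0355 to 0.1533.

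Mice 1 to 5 have the same numbers at both stages. Same-numbered mice correlated by 0.05 to 0.58 in their deviations, and 1 of 5 adults and 2 of 5 pregnant mice were closest to their own number, so the numbers were not taken as pairs. With a replicate block over these 10 libraries, 148 miRNAs were called (39 higher, 109 lower) and 12 arm pairs, 10 of them among those called without it, and miR-192-5p was at -0.0723. At these depths, a count of 0 in a single library allows up to 2.58 to 3.45 RPM, a limit that does not apply to stage means.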
